A study of Mus musculus with 18 samples.

Results

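The 9 classical estrogen-responsive genes Pgr, Greb1, Tff1, Ccnd1, Xbp1, Ctsd, Igfbp4, Myc and Bcl2 were followed across whole brains of mice labelled as lacking an estrogen receptor. They were chosen by name: every probe set that the platform annotation gives to 1 of these 9 genes was taken, and for each gene the probe set with the highest mean over all arrays leads the account. This gave 28 of the 45037 probe sets on the array that are not controls, and 9 of its 18193 named genes. 8 of the 9 had a leading probe set past the filter on low signal and were tested among 13070 genes, while Myc fell under the filter. Signal is the authors' linear intensity of a probe set, scaled to the same trimmed mean on every array, and the filter asked for a mean log2 level matching a signal of 128. A result passed where its p, adjusted over all genes or all probe sets in the fit, was under 0.05.

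The 18 arrays, all of 1 Affymetrix whole-genome mouse design, came from 8-week-old C57BL/6 mice in 6 groups of 3. The groups were ERalphaKO females, ERalphaKO males, ERbetaKO females, ERbetaKO males, wild type females and wild type males. ERalphaKO names the receptor encoded by Esr1 and ERbetaKO the receptor encoded by Esr2. The alleles, the stage of the estrous cycle and whether each sample was a separate animal are not given in the sources used here, so a p-value reflects only how far these samples spread. By their labels, all groups shared strain, age, tissue and protocol, and no hormone treatment is named, so the labelled differences are genotype and sex. The arrays also differed in markers of brain region and in a sign of RNA integrity, as given below. The array titles carry B6 only for wild type, and whether the lines shared their genetic background was not tested. A difference between labels may therefore carry more than genotype and sex.

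Estrogen receptors are ligand-activated transcription factors that bind estrogen response elements, an inverted repeat of a short half-site, or are recruited to DNA through other factors. The 9 genes are known as targets mainly from breast cancer cells and uterus. In brain, estrogen induction of the progesterone receptor is best known from the hypothalamus and preoptic area, small regions of a whole-brain extract. In such an extract, fewer cells of a type and less RNA per cell cannot be told apart.

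None of the 8 tested genes passed an adjusted p under 0.05 when either knockout-labelled group was set against wild type, comparisons in which 6.71% (ERalphaKO-labelled) and 7.51% (ERbetaKO-labelled) of all genes passed. Tff1 alone passed between the knockout lines, where 15.4% of all genes passed, with a signal of 2527 ± 162 in ERalphaKO-labelled brains and 3686 ± 772 in brains labelled ERbetaKO (SD, n = 6 each). No member passed between the sexes, and none passed for a dependence of a genotype difference on sex. Besides leading probe sets, 1 of Bcl2 passed in ERalphaKO-labelled against wild type brains and 1 of Pgr passed between the lines, and each had the opposite sign to the leading probe set of its gene.

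The promoters bear on which members carry the receptors' binding letters near a start site. RefSeq sequence of GRCm38.p6 was at hand for 6 members in 7 windows, each running 250 bases before to 50 after a start site. Tff1, Ccnd1 and Myc were not matched. The full palindrome GGTCANNNTGACC, searched on both strands, was in none of the 7 windows and in 0.07% of all 32851 promoters. The half-site GGTCA, or TGACC on the other strand, which is contained in the full palindrome, was in 2 members. Ctsd held 3, beginning at -241, -94 and -69 from the start site. Greb1 held 2 at one start site, at -194 and -85, and 1 at another, at -88. The windows of Pgr, Xbp1, Igfbp4 and Bcl2 held none. A half-site was present in 40.5% of all promoters, and 10.8% held 2 or more. The 250 bases before the start site are given 5′ to 3′ for the 3 windows with a half-site, all on the minus strand, with the half-sites in capitals. The first Greb1 line is chr12:16757240-16757489, the second Greb1 line is chr12:16800887-16801136 and the Ctsd line is chr7:142387828-142388077.
Greb1, first start site: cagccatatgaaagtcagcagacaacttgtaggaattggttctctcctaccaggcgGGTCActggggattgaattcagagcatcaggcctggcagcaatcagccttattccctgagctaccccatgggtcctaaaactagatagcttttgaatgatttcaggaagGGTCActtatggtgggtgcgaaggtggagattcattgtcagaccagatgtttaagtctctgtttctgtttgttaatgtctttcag
Greb1, second start site: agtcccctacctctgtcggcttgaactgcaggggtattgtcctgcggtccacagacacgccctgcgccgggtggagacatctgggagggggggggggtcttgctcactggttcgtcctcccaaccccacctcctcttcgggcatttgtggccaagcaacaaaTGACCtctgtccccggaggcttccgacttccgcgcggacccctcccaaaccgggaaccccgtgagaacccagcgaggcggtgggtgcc
Ctsd: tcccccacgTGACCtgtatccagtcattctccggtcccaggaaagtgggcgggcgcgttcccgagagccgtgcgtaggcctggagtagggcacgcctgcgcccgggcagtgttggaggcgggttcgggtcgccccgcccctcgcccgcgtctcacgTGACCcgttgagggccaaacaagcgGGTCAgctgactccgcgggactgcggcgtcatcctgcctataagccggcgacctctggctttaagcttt
These letters describe the sequence only, and receptor binding was not measured.

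The targeted genes were read first. The single Esr2 probe set went against its label, with a signal of 271 ± 98.0 in ERbetaKO-labelled, 33.2 ± 22.6 where labelled ERalphaKO and 28.7 ± 11.4 in wild type (SD, n = 6 each). The lowest ERbetaKO-labelled value, 160.4, lay above every value of both other groups. Of the 3 Esr1 probe sets, 1421244_at averaged 129 in ERalphaKO-labelled, 197 in ERbetaKO-labelled and 143 in wild type arrays. 1460591_at averaged 230 in ERalphaKO-labelled, 97.5 in ERbetaKO-labelled and 141 in wild type arrays, and 1435663_at averaged 65.0, 37.2 and 38.6 in ERalphaKO-labelled, ERbetaKO-labelled and wild type arrays. No Esr1 probe set passed the threshold between ERalphaKO-labelled and wild type arrays in the fit of all probe sets (limma, adjusted p from 0.0970 to 0.775). Between the knockout lines 2 of the 3 passed in opposite directions, 1460591_at at 0.91 and 1421244_at at -0.44 on the log2 scale. Whether the probe sets lie inside the deleted parts is not known here, so the groups are called by their labels throughout, and every direction given below rests on those labels.

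The arrays carried brain RNA, since all 8 neuron, all 10 astrocyte and all 8 measured oligodendrocyte markers were past the filter. They also differed in markers of single brain regions and of pituitary. Pcp2, a Purkinje cell gene, ran from 117 to 10790 over the arrays, and Gh, a pituitary hormone gene, from 67.0 to 19903. The ratio of the 3′ to the 5′ Actb control, a sign of RNA integrity, was 1.15 to 1.37 in ERalphaKO-labelled, 1.34 to 1.84 in ERbetaKO-labelled and 1.17 to 1.23 in wild type arrays. Wild type female replicate 2 stood apart through liver transcripts, with an Alb signal of 7874 against 120 to 693 on the other 17 arrays. Xist was 3916 to 5074 in females and 226 to 449 in males.

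**Figure D1:**
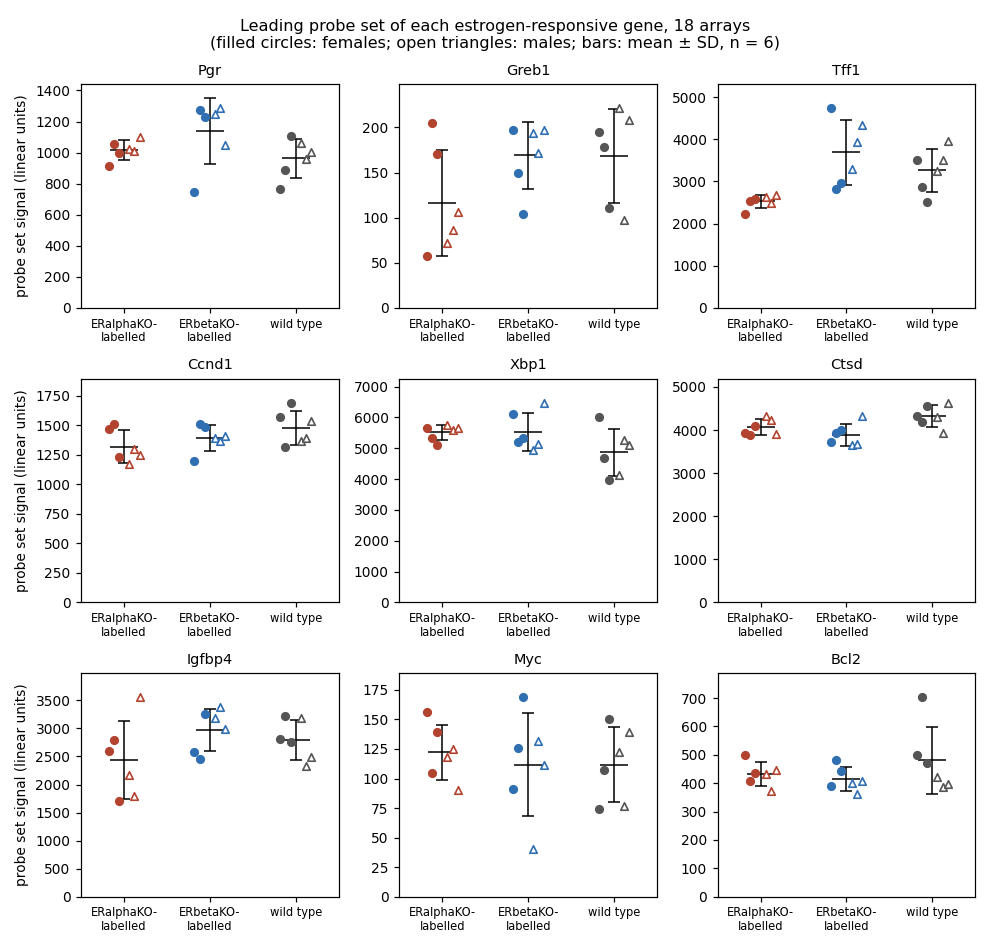
Signal of the leading probe set of each of the 9 genes (y axis, linear scanner units scaled to a common mean, from 0) on the 18 arrays, in ERalphaKO-labelled, ERbetaKO-labelled and wild type groups; filled circles are females, open triangles males, and bars the mean ± SD of 6 arrays. Tff1 is the only gene whose ERalphaKO-labelled values, up to 2679, lie wholly below its ERbetaKO-labelled values, from 2829.

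Pgr encodes the progesterone receptor, the best known estrogen-induced receptor of the brain. Its leading probe set, 1439527_at, had a lowest, median and highest signal of 915, 1018 and 1103 in ERalphaKO-labelled, 745, 1238 and 1286 in ERbetaKO-labelled and 764, 980 and 1109 in wild type arrays. All 3 groups overlapped. The means were 1018 ± 63.2 in ERalphaKO-labelled, 1138 ± 211 in ERbetaKO-labelled and 964 ± 125 in wild type arrays (SD, n = 6 each). The log2 difference was 0.08 for ERalphaKO-labelled against wild type (95% interval -0.16 to 0.32) and 0.21 for ERbetaKO-labelled against wild type (-0.03 to 0.45), with limma adjusted p of 0.717 and 0.258. Log2 differences are on the log2(signal + 63.63) scale, which understates changes of weak genes. The lowest ERbetaKO-labelled value came from female replicate 1, and without that array the difference from wild type was 0.33 and passed (limma adjusted p = 0.0337). It also passed with arrays weighted by quality (0.31, limma adjusted p = 0.0423). Other settings gave smaller Pgr differences that did not pass, 0.08 with a common median and 0.07 with the neuron score in the fit. The difference was 0.03 on the 11 arrays with a Pcp2 signal of 500 or more. With the Actb ratio in the fit it was -0.09, of opposite sign, and neither passed. Every ERbetaKO-labelled array had a higher Actb ratio than every wild type array, so there ratio and label cannot be told apart. With the ratio, the SE of the Pgr difference rose from 0.114 to 0.178.

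The second Pgr probe set, 1455772_at, lay under the filter and ran the other way. It read 114, 136 and 228 (lowest, median, highest) in ERalphaKO-labelled, 29.1, 54.7 and 111 in ERbetaKO-labelled and 30.3, 114 and 163 in wild type arrays. Its ERalphaKO-labelled values lay wholly above its ERbetaKO-labelled values, and 4.73% of all probe sets had no overlap between these groups in one direction or the other. The log2 difference was 0.76 (limma adjusted p = 0.0276 over all probe sets), against -0.13 for the leading probe set. The call was lost on leaving out any 1 of 8 of the 18 arrays, with an adjusted p of up to 0.0677, and also when the Actb ratio entered the fit (0.69, limma adjusted p = 0.196) or the neuron score did (0.69, limma adjusted p = 0.197). The third, 1421444_at, averaged 80.6 ± 12.8, 102 ± 19.8 and 75.4 ± 11.05 in ERalphaKO-labelled, ERbetaKO-labelled and wild type arrays and did not pass in any comparison. Over the 18 arrays the leading Pgr probe set followed the 12 cerebellar markers inversely (r = -0.71) and the 10 astrocyte markers inversely (r = -0.70), and was most like Nop16 (r = 0.88), Nfyb (0.87) and Gcc2 (0.84) among 13069 other genes. The cerebellar markers had a median log2 difference of -0.87 in ERbetaKO-labelled against wild type arrays and 0.04 in ERalphaKO-labelled against wild type arrays, and 0 of the 12 passed in either. Their summed signal was 10630 to 57750 (median 36130) for the ERalphaKO label, 9892 to 81230 (median 14440) for the ERbetaKO label and 11400 to 89060 (median 37150) for wild type. The astrocyte markers had medians of -0.30 in ERbetaKO-labelled arrays, with Gfap (-1.23) and Slc7a10 (-0.47) passing as lower, and -0.20 in ERalphaKO-labelled arrays, with Aldoc (-0.49) passing as lower. Their summed signal was 45400 to 55190 for the ERalphaKO label, 44810 to 62690 for the ERbetaKO label and 56380 to 64230 for wild type. The part of these markers in the Pgr differences was not tested beyond the fit with the cerebellar score, which gave 0.14 in ERbetaKO-labelled against wild type arrays and did not pass. The correlations of members given here and below are descriptions on the log2 scale over 18 arrays that share groups and differ in tissue. The marker lists named for a gene are those of strongest correlation among all the lists read.

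Greb1, an estrogen-induced cofactor of the receptor in breast cells, carried the half-site windows printed above. Its leading probe set, 1445323_at, read 57.5, 96.2 and 205 (lowest, median, highest) in ERalphaKO-labelled, 104, 183 and 198 in ERbetaKO-labelled and 97.8, 187 and 221 in wild type arrays. The groups overlapped, with 3 ERalphaKO-labelled arrays, 2 of females and 1 of a male, above the lowest value of each other group. The log2 difference was -0.40 for ERalphaKO-labelled against wild type (95% interval -0.81 to 0.02, limma adjusted p = 0.236), 0.02 for ERbetaKO-labelled against wild type (-0.40 to 0.43, 0.964), and -0.41 for ERalphaKO-labelled against ERbetaKO-labelled (-0.83 to 0.00, 0.156). All 4 Greb1 probe sets had estimates below 0 in ERalphaKO-labelled against either other group, under each of the scalings and pseudocounts run, and none of them passed in the fit of all probe sets. In ERbetaKO-labelled against wild type arrays the leading estimate turned to -0.08 with quantile normalization and with a common median. Their signals were low, from 30.7 to 151 on average, so a change in them is understated. Greb1 was most like 1600010M07Rik (r = 0.91), Nyx (0.89) and Slc26a3 (0.86).

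Tff1 encodes a small secreted trefoil peptide of the gastric mucosa and a classical estrogen-induced gene of human breast cancer cells. Its single probe set, 1448156_at, read 2224, 2564 and 2679 (lowest, median, highest) in ERalphaKO-labelled, 2829, 3626 and 4737 in ERbetaKO-labelled and 2509, 3373 and 3965 in wild type arrays. Every ERalphaKO-labelled value lay below every ERbetaKO-labelled value, while both overlapped wild type. The ERalphaKO-labelled mean was 0.685 times the ERbetaKO-labelled mean, a log2 difference of -0.51 (95% interval -0.76 to -0.26, limma adjusted p = 0.0112). Of all genes, 5.85% had groups of 6 that did not overlap in this comparison, against 4.67% for ERalphaKO-labelled and 4.09% for ERbetaKO-labelled against wild type arrays, where 0 leading probe sets of the members were free of overlap. A single call among 8 members is near the share of all genes that passed. The Tff1 probe set lay at the 95.9th percentile of all probe sets in mean level. No second probe set read Tff1, and whether this one reads Tff1 alone was not tested.

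Against wild type, Tff1 differed by -0.35 on the log2 scale in ERalphaKO-labelled arrays (95% interval -0.60 to -0.10, limma adjusted p = 0.0807) and by 0.16 in ERbetaKO-labelled arrays (-0.09 to 0.41, limma adjusted p = 0.417). The first of these missed the threshold and passed it in 3 of 15 other settings and on leaving out 1 array, ERbetaKO-labelled female replicate 1 (limma adjusted p = 0.0228). In females the group means were 2451 ± 198 in ERalphaKO-labelled, 3511 ± 1063 in ERbetaKO-labelled and 2960 ± 499 in wild type arrays (SD, n = 3 each). In males they were 2602 ± 95.5 in ERalphaKO-labelled, 3861 ± 519 in ERbetaKO-labelled and 3571 ± 364 in wild type arrays. ERalphaKO-labelled had the lowest mean in both sexes.

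Tff1 moved with the neuron markers. Over the 18 arrays it correlated at 0.72 with the mean log2 level of the 8 markers, and at 0.15, 0.79 and 0.80 within the 6 ERalphaKO-labelled, 6 ERbetaKO-labelled and 6 wild type arrays. The summed signal of these markers was 49160 to 59030 in ERalphaKO-labelled, 56270 to 73620 in ERbetaKO-labelled and 62200 to 77340 in wild type arrays. Of the 8 markers, Nefl and Syn1 were lower in ERalphaKO-labelled than in wild type arrays and Syt1 lower in ERalphaKO-labelled than in ERbetaKO-labelled arrays. With the neuron score as a covariate, the Tff1 difference between the knockout lines was -0.24 ± 0.13 (SE) and did not pass (limma adjusted p = 0.305), and the difference from wild type in ERalphaKO-labelled arrays was 0.10 ± 0.18. The same covariate cut the calls over all genes in the comparison of the lines to 243, against 2015 without it. Every ERalphaKO-labelled array had a lower neuron score than every wild type array, so in that comparison score and label cannot be told apart. With the score, the median SE over all genes rose from 0.106 to 0.196 there, and to 0.143 between the lines. Adjusting for the Actb ratio instead gave a Tff1 difference between the lines of -0.69 ± 0.15, which passed (limma adjusted p = 0.0250). The ratio was 1.15 to 1.37 in ERalphaKO-labelled and 1.34 to 1.84 in ERbetaKO-labelled arrays. Ratio and label are therefore hard to tell apart between the lines.

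**Figure D2:**
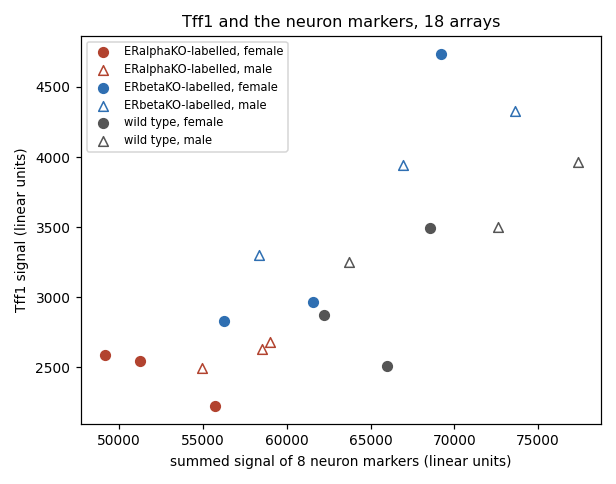
Tff1 signal (y axis, linear units) against the summed signal of 8 neuron markers (x axis, linear units) on the 18 arrays; colours give the genotype label, filled circles females and open triangles males, and neither axis starts at 0. The ERalphaKO-labelled arrays lie at the low end of both axes, with marker sums up to 59030 and Tff1 up to 2679.

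The genes most like Tff1 over the 18 arrays were Thoc3 (r = 0.94), Lnx1 (0.94) and Gm9112 (0.92). Within the ERalphaKO-labelled, ERbetaKO-labelled and wild type arrays taken apart, Thoc3 correlated with Tff1 at 0.78, 0.95 and 0.91. Among the 36 pairs of members, Tff1 and Greb1 gave the highest correlation, 0.61, and the only one beyond 0.5 in either direction. Of the other 6 trefoil and gastric mucosal genes looked for, 5 were on the array and only Tff3 was past the filter, with a log2 difference of -0.36 in ERalphaKO-labelled against ERbetaKO-labelled arrays that did not pass.

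Igfbp4, a secreted protein that binds insulin-like growth factors and restrains them, was read by 6 probe sets. The leading one, 1437405_a_at, read 1702, 2385 and 3563 (lowest, median, highest) in ERalphaKO-labelled, 2463, 3088 and 3375 in ERbetaKO-labelled and 2324, 2789 and 3216 in wild type arrays. The highest value of all came from ERalphaKO-labelled male replicate 3, and the groups overlapped. The log2 difference was -0.32 in ERalphaKO-labelled against ERbetaKO-labelled arrays (95% interval -0.63 to 0.00, limma adjusted p = 0.157). Without that male array it was -0.45 and passed (limma adjusted p = 0.0240), and it passed with array weights (-0.40, limma adjusted p = 0.0282). With a common median the Igfbp4 difference was -0.20 and did not pass. Against wild type the differences were -0.23 (limma adjusted p = 0.378) for the ERalphaKO label and 0.09 (0.757) for the ERbetaKO label. All 6 probe sets were below 0 between the knockout lines, 5 of 6 with a smaller pseudocount, quantile normalization or a common median, and all 6 were above 0 in ERbetaKO-labelled against wild type arrays, 3 of 6 with a common median. Igfbp4 was most like 1110008P14Rik (r = 0.87), Myl4 (0.85) and Trbv1 (0.83).

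Ctsd encodes the lysosomal protease cathepsin D, an estrogen-induced gene of breast cancer cells, and held 3 half-sites in the window printed above. Its single probe set, 1448118_a_at, read 3887, 4011 and 4323 (lowest, median, highest) in ERalphaKO-labelled, 3647, 3834 and 4325 in ERbetaKO-labelled and 3940, 4306 and 4639 in wild type arrays. The groups overlapped, and no member varied less over the 18 arrays, with a highest value 1.27 times its lowest. The log2 difference from wild type was -0.09 (95% interval -0.22 to 0.04, limma adjusted p = 0.403) in ERalphaKO-labelled and -0.15 (-0.28 to -0.02, limma adjusted p = 0.129) in ERbetaKO-labelled arrays. Arrays centred on a common median gave -0.29 for the second (limma adjusted p = 0.0353), a scaling that also moved the median of all genes to -0.12, against 0.01 with the common trimmed mean. Quantile normalization gave -0.02 for the Ctsd difference in ERalphaKO-labelled against wild type arrays. Over the 18 arrays Ctsd followed the astrocyte markers (r = 0.63), the oligodendrocyte markers (0.55) and the endothelial and mural markers (0.52). It was most like Sdf2 (0.90), Gstm5 (0.84) and Vbp1 (0.84).

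Ccnd1 encodes cyclin D1, which drives cells into S phase. Its leading probe set, 1448698_at, read 1168, 1271 and 1506 (lowest, median, highest) in ERalphaKO-labelled, 1199, 1400 and 1510 in ERbetaKO-labelled and 1311, 1465 and 1691 in wild type arrays. The log2 difference from wild type was -0.16 (95% interval -0.32 to 0.01, limma adjusted p = 0.233) in ERalphaKO-labelled and -0.08 (-0.24 to 0.08, 0.554) in ERbetaKO-labelled arrays, with overlapping groups. All 3 Ccnd1 probe sets had estimates below 0 in ERbetaKO-labelled against wild type arrays, and none passed. In ERalphaKO-labelled against wild type arrays the other 2 probe sets differed in sign from each other. 1417420_at averaged 1100.1 ± 76.2 where labelled ERalphaKO and 988 ± 62.7 in wild type, 0.15 apart on the log2 scale (limma adjusted p = 0.211). 1417419_at averaged 179 ± 38.8 where labelled ERalphaKO and 258 ± 35.9 in wild type, -0.42 apart on the log2 scale (limma adjusted p = 0.291). Ccnd1 followed the microglia markers (r = 0.69), ran inversely to the cerebellar markers (-0.52) and was most like Rasgef1a (0.85), Ramp1 (0.84) and Ccm2 (0.83).

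Xbp1 encodes a transcription factor of the unfolded protein response. Its leading probe set, 1420886_a_at, read 5120, 5626 and 5744 (lowest, median, highest) in ERalphaKO-labelled, 4955, 5254 and 6483 in ERbetaKO-labelled and 3985, 4888 and 6011 in wild type arrays. The wild type values spread most and overlapped both other groups. The log2 difference from wild type was 0.19 in both ERalphaKO-labelled arrays (95% interval -0.01 to 0.40, limma adjusted p = 0.248) and ERbetaKO-labelled arrays (-0.01 to 0.40, 0.231), and 0.00 between the lines. The first passed with quantile normalization (0.29, limma adjusted p = 0.0356), and the second with the neuron score as a covariate (0.36, limma adjusted p = 0.0482). With a common median the second was 0.06 and did not pass, and 2 of the 4 Xbp1 probe sets then lay above 0 and 2 below. The other 3 probe sets ran from -0.16 to 0.06 in ERalphaKO-labelled and from -0.24 to 0.25 in ERbetaKO-labelled against wild type arrays, and none passed. Xbp1 was most like Smc1a (r = 0.85), Vapa (0.82) and Tsn (0.81).

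Myc encodes a growth-promoting transcription factor and had a single probe set, 1424942_a_at, under the filter of 128 signal units. It read 90.5, 121 and 156 (lowest, median, highest) in ERalphaKO-labelled, 39.95, 119 and 169 in ERbetaKO-labelled and 74.4, 115 and 150 in wild type arrays. The groups overlapped. In the fit of all probe sets the log2 difference from wild type was 0.09 (limma adjusted p = 0.816) for the ERalphaKO label and -0.02 (0.956) for the ERbetaKO label. A difference at this level was not detectable beyond the spread, which does not show that Myc was alike in the groups.

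Bcl2 encodes a mitochondrial inhibitor of cell death, estrogen-induced in breast cells. Its leading probe set, 1457687_at, read 373, 433 and 499 (lowest, median, highest) in ERalphaKO-labelled, 361, 404 and 482 in ERbetaKO-labelled and 388, 446 and 704 in wild type arrays. The highest value, 704, came from wild type female replicate 2, the array with liver transcripts. The log2 difference from wild type was -0.11 (95% interval -0.31 to 0.08, limma adjusted p = 0.495) in ERalphaKO-labelled and -0.17 (-0.36 to 0.03, 0.268) in ERbetaKO-labelled arrays. The wild type mean was 480.5 ± 118 (SD, n = 6) with that array and 436 ± 48.2 (SD, n = 5) without it. Without it the Bcl2 log2 differences from wild type were -0.03 for the ERalphaKO label and -0.09 for the ERbetaKO label, and neither passed (limma adjusted p = 0.852 and 0.536). The genes most like Bcl2 were Alb (r = 0.85), Apoc1 (0.81) and Apoa2 (0.80), all liver transcripts, and without that array the correlations were 0.52, 0.40 and 0.26 over 17 arrays.

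The Bcl2 probe set 1443837_x_at behaved otherwise. It read 166, 210 and 235 (lowest, median, highest) in ERalphaKO-labelled, 141, 156 and 174 in ERbetaKO-labelled and 56.1, 120 and 138 in wild type arrays. Both knockout-labelled groups lay wholly above wild type, which they share as control. Of all probe sets, 4.02% had no overlap with wild type in one direction or the other for the ERalphaKO label and 2.64% for the ERbetaKO label. The log2 difference was 0.63 in ERalphaKO-labelled arrays (limma adjusted p = 0.0112 over all probe sets) and 0.37 in ERbetaKO-labelled arrays (0.117). The remaining 3 probe sets had differences of 0.13, 0.13 and 0.17 in ERalphaKO-labelled against wild type arrays, and none passed. The first call was kept on leaving out each array in turn and was lost with the neuron score as a covariate (0.67, limma adjusted p = 0.430) and when the fit kept the 11 arrays whose Pcp2 signal reached 500 (0.72, limma adjusted p = 0.116). The suffix _x marks probes that may also bind other transcripts, so this probe set is an uncertain reading of Bcl2.

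**Figure D3:**
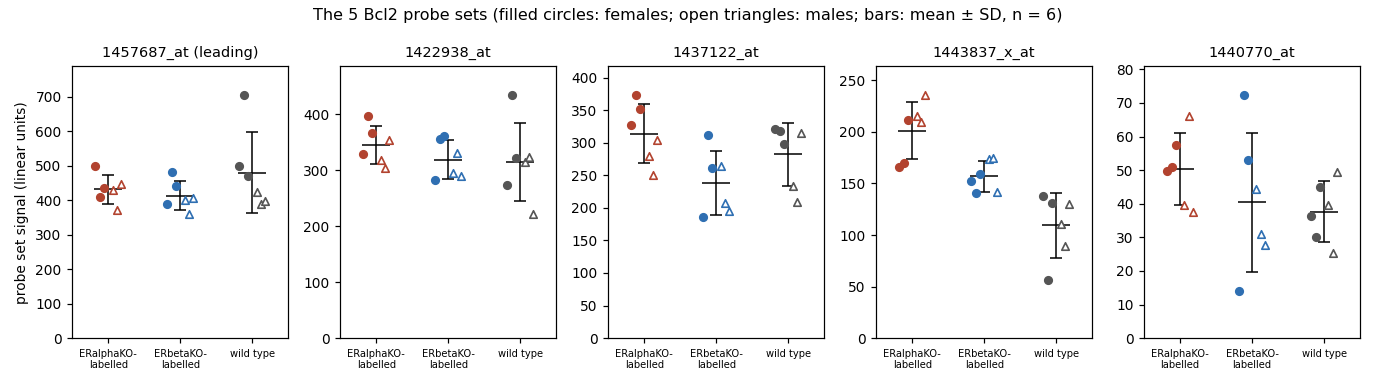
Signals of the 5 Bcl2 probe sets (y axes, linear units, each from 0) in ERalphaKO-labelled, ERbetaKO-labelled and wild type arrays; filled circles are females, open triangles males, and bars the mean ± SD of 6 arrays. In 1443837_x_at the knockout-labelled values, from 141 upward, all lie above the wild type values, up to 138, and in the leading probe set 1 wild type female array stands at 704.

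The 8 tested members gave 0, 0 and 1 calls in the 3 genotype comparisons. At an unadjusted p under 0.05 there was 1 in each of the 3 genotype comparisons, Tff1, Ctsd and Tff1 in turn, while 3044, 3324 and 4201 of the 13070 genes did so. In ERbetaKO-labelled against wild type arrays 379 of all called genes were higher and 602 lower, against 136 and 1736 when arrays were centred on a common median. In ERalphaKO-labelled against ERbetaKO-labelled arrays 825 of all called genes were higher and 1190 lower, against 1869 and 556 with that centring. The median log2 difference of the members was -0.14 in ERalphaKO-labelled against wild type, 0.05 in ERbetaKO-labelled against wild type and -0.10 between the lines, beside -0.03, 0.01 and -0.02 over all genes. Over the 28 probe sets, 1 passed in ERalphaKO-labelled against wild type, where 4.72% of all probe sets passed, 0 in ERbetaKO-labelled against wild type (3.59%), and 2 in ERalphaKO-labelled against ERbetaKO-labelled arrays (9.43%). These shares are near those of the whole array. The bounds of the members' 95% intervals reached from -0.81 to 0.40, from -0.40 to 0.45 and from -0.83 to 0.25 in the 3 comparisons. The lowest bound was that of Greb1 each time, and the highest those of Xbp1, Pgr and Bcl2 in turn. No single member had an interval this wide, and for each member the data allow changes up to its own bounds. In data simulated for the ERalphaKO against wild type comparison, the share of altered genes that the fit found was 37.3% at 1.3-fold, 61.2% at 1.5-fold and 93.9% at 2-fold. The simulation altered 67, 67 and 66 of 13070 genes in turn, fewer than the 877 called in the real comparison. These shares may therefore not carry over to the real data.

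**Figure D4:**
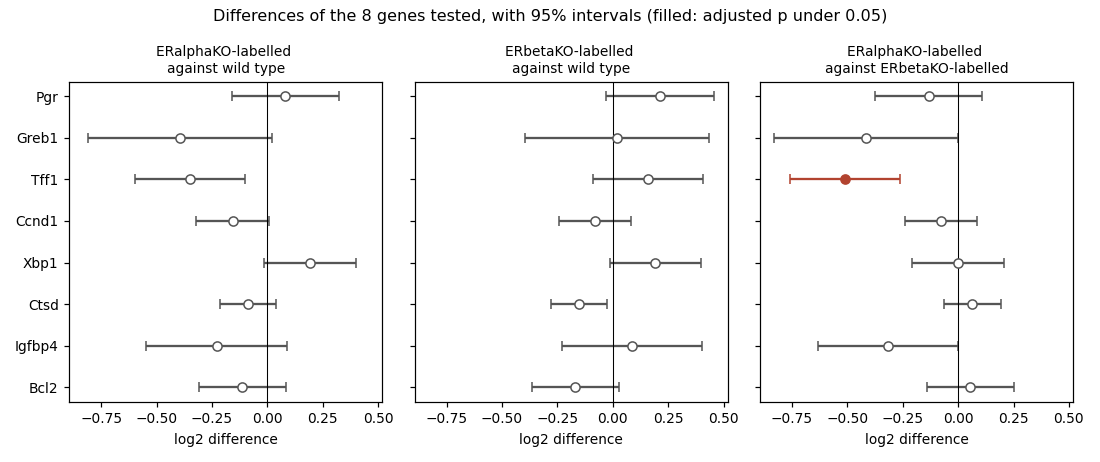
Log2 differences (x axis) of the 8 tested genes in ERalphaKO-labelled against wild type, ERbetaKO-labelled against wild type and ERalphaKO-labelled against ERbetaKO-labelled arrays, with 95% intervals; filled points passed an adjusted p under 0.05. The only filled point is Tff1 between the knockout lines, at -0.51.

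**Figure D5:**
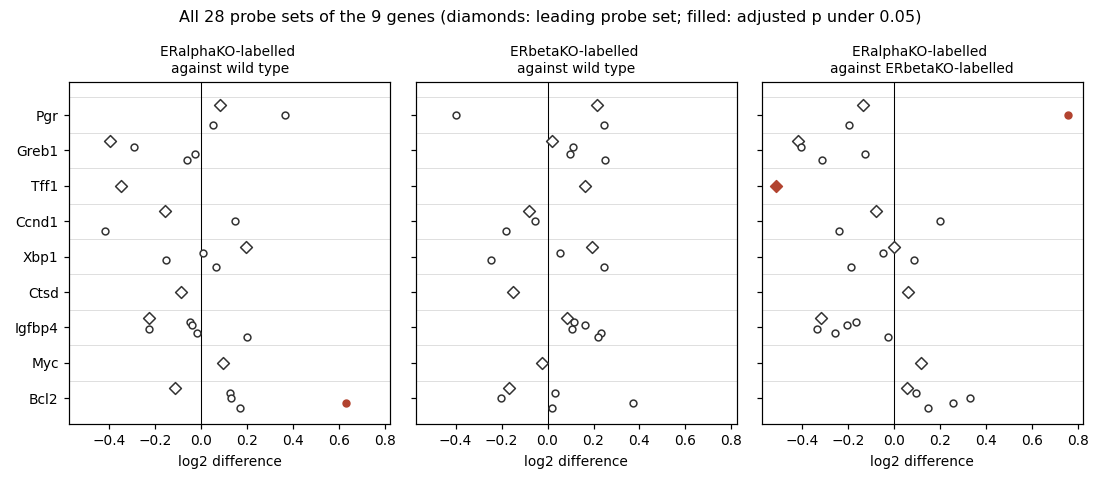
Log2 differences (x axis) of all 28 probe sets, by gene, in the same 3 comparisons; diamonds are leading probe sets and filled symbols passed an adjusted p under 0.05 over all probe sets. Probe sets of Pgr, Ccnd1, Xbp1 and Bcl2 lie on both sides of 0 in at least 2 of the comparisons, and the filled symbols are Bcl2 1443837_x_at at 0.63, Tff1 at -0.51 and Pgr 1455772_at at 0.76.

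No tested member passed in females against males, where 4 of 13070 genes (0.0306%) passed, and 0 of the 28 probe sets did, where 0.0333% of all probe sets passed. Bcl2 was the only member with an unadjusted p under 0.05, with a mean of 448 ± 46.3 in ERalphaKO-labelled, 438 ± 46.1 in ERbetaKO-labelled and 558 ± 127 in wild type females, and of 417 ± 38.9 in ERalphaKO-labelled, 389.7 ± 25.3 in ERbetaKO-labelled and 403 ± 18.1 in wild type males (SD, n = 3 each). Its log2 difference was 0.21 (limma adjusted p = 0.974), and the wild type females include the array with liver transcripts. For the dependence of each knockout difference on sex, 0 of 13070 genes passed (0%) in either line, and the members' smallest adjusted p by limma was 0.973 for the ERalphaKO-labelled difference and 1.00 for the ERbetaKO-labelled one. Over all genes 675 and 444 reached an unadjusted p under 0.05 in these tests, and 0 members did. Within one sex, Tff1 differed from wild type by -0.26 in ERalphaKO-labelled females and -0.44 in ERalphaKO-labelled males, and neither passed (limma adjusted p = 0.505 and 0.195).

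Other genes of the same biology were counted in lists written with earlier results of these data known. Over all genes, 6.71% passed in ERalphaKO-labelled against wild type arrays, 7.51% in ERbetaKO-labelled against wild type arrays and 15.4% between the lines, and the counts below are to be read against these shares. Of 18 tested estrogen-responsive genes of uterus and breast cells, 0 passed in ERalphaKO-labelled against wild type arrays and 1 in ERbetaKO-labelled against wild type arrays, Mcm3, a replication helicase subunit (0.42, limma adjusted p = 0.0321). Between the lines 4 of the 18 were lower in ERalphaKO-labelled arrays, where 15.4% of all genes passed in either direction, among them Ltf, the lactoferrin gene (-0.46), Ccna2, cyclin A2 (-0.39), and Fhl2, a LIM-domain cofactor (-0.62). Of 14 tested estrogen-responsive genes of brain, 0 passed in any of the 3 genotype comparisons. Of 14 tested receptors and coregulators, 0 passed against wild type in either line, and between the lines Ep300 (0.50) and Safb (0.43) were higher and Esr1 lower (-0.44) in ERalphaKO-labelled arrays. The Esr1 call came from 1421244_at. Its probe set 1460591_at, of like mean signal, passed in the opposite direction in the fit of all probe sets, as given above.

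Of 13 tested cyclin D partners and cell cycle inhibitors, 0 passed against wild type, and between the lines, where 15.4% of all genes passed, Rbl2 (0.28) and Cdk4 (0.29) were higher in ERalphaKO-labelled than in ERbetaKO-labelled arrays. Of 11 tested relatives of Bcl2, 0 passed in ERalphaKO-labelled against wild type arrays, while in ERbetaKO-labelled arrays the pro-death gene Bcl2l11 was higher (0.30) and the pro-death gene Bak1 lower (-0.46). Of 12 tested genes of the insulin-like growth factor axis, 0 passed in ERalphaKO-labelled and 2 in ERbetaKO-labelled against wild type arrays, Igfbp7 (-0.43) and Igfbp5 (-0.42), both lower.

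Among 22 tested genes of the unfolded protein response, which Xbp1 serves, 2 were higher and 1 lower in ERalphaKO-labelled than in wild type arrays. They were Atf4 (0.60, limma adjusted p = 0.00309) and Hsp90b1 (0.24), which were higher, and Ddit3 (-0.60), in a comparison where 6.71% of all genes passed. In ERbetaKO-labelled against wild type arrays 4 of the 22 passed and all were lower, among them the disulfide isomerases Pdia4 (-0.57) and Pdia6 (-0.35). In that comparison 7.51% of all genes passed, and 602 of the 981 were lower. Of 19 tested lysosomal genes, the compartment of Ctsd, 1 passed in ERalphaKO-labelled against wild type arrays, Psap (-0.46), and 2 in ERbetaKO-labelled against wild type arrays, Ctsf (-0.67) and Npc2 (-0.33), all lower. Of 12 tested genes of the Myc network, 1 passed in ERalphaKO-labelled against wild type arrays, Mxi1 (0.27), and of 15 Myc-responsive genes 1 passed in each line against wild type, Tfrc (-0.28) in ERalphaKO-labelled and Odc1 (-0.34) in ERbetaKO-labelled arrays.

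Between the knockout lines, where 15.4% of all genes passed, 3 of the 22 genes of the unfolded protein response were higher in ERalphaKO-labelled arrays, Atf4 (0.51), Syvn1 (0.39) and Pdia4 (0.39). Of the 19 lysosomal genes Ctsf (0.46) and Neu1 (0.23) were higher, and of the 11 relatives of Bcl2 only Bcl2l11 passed and was lower (-0.28). Of the insulin-like growth factor axis Igfbp7 was higher (0.35) and Stc1 (-0.37) and Igfbp6 (-0.62) were lower. Of the Myc network Mlx was lower (-0.18), and of the Myc-responsive genes Cdk4 was higher (0.29) and Tfrc lower (-0.23). The median log2 difference of these 10 lists ran from -0.03 to 0.13 in ERalphaKO-labelled and from -0.11 to 0.13 in ERbetaKO-labelled against wild type. Between the lines it ran from -0.13 to 0.12, beside the -0.03, 0.01 and -0.02 over all genes in the 3 comparisons. The trefoil and gastric list is not among these 10. Its 1 tested gene, Tff3, gave -0.19, 0.16 and -0.36 in turn and did not pass.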

How the data were processed

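RNA from whole brain was labelled and hybridised to 1 array per sample, 18 in all, starting from 1 µg of total RNA per the labels' protocols. The authors deposited 1 linear intensity per probe set and array, computed with MAS5 per the submitters' processing notes, and every deposited column had a 2% trimmed mean of 500 over 45101 probe sets. No detection calls or raw scans were used here, so weak probe sets were recognised by signal alone, and the number of arrays limits the precision.

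After removal of 64 control probe sets, log2(signal + 63.63) was taken, with the 25th percentile of all values as pseudocount. The probe set with the highest mean stood for each gene, and a gene was tested if its mean log2 level reached 7.58, the 40th percentile over probe sets. limma 3.58.1 under R 4.3.3 estimated the 6 group means (eBayes with an intensity trend, 12 residual degrees of freedom), genotype contrasts averaged both sexes, and p-values were adjusted over all genes by the Benjamini-Hochberg method at 0.05. A second fit over all 45037 probe sets served the other probe sets and Myc. Tables were handled with pandas 2.3.3 and figures drawn with matplotlib 3.10.9 in Python 3.11.15.

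Symbols came from the platform annotation, which gave 1 symbol to 34945 probe sets, several to 932 and none to 9160, and were updated to RefSeq. The named genes were the members, Esr1 and Esr2, the 3 genes most correlated with each member, and up to 3 of each list with the smallest adjusted p. The members and all lists were chosen with earlier results of these data known. The fit was tested on simulated data, with 5.88% of calls false. Alternatives were other pseudocounts, scalings and filters, all probe sets, no trend, array weights, a replicate block, covariates for the Actb ratio, a cerebellar score and a neuron score, arrays with strong Pcp2, only the groups compared, and each array left out. The neuron score, and every alternative on the fit of all probe sets, were added after the data were seen.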

Additional observations from a re-analysis of the deposited data

Results flagged for a closer look

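In wild type arrays the leading Bcl2 probe set, 1457687_at, had a highest value of 704 in female replicate 2, far from the other 5 values, which averaged 436 ± 48.2 (SD, n = 5). It was flagged because its gap to the next value was over 0.625 of the range of the 6 arrays. Of 27 groups of 6 examined, 1 was flagged, and chance alone flags a group now and then. The same array had the liver transcripts Alb at 7874, Apoa2 at 2711 and Apoc1 at 1668, against at most 693, 233 and 239 on the other 17 arrays. The part of this array's liver transcripts in its Bcl2 signal was not tested.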

How the results depend on the processing

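The members gave 56 results with an adjusted p, recomputed under the alternatives for 1621 pairs of a result and a setting. Of these pairs, 1596 left the call as it was, 13 lost it, 12 gained it and none reversed a call. In 97 of the pairs the result passed in neither fit and changed sign. Tff1 between the knockout lines passed in 14 of 15 alternatives (log2 difference -0.82 to -0.24, adjusted p 0.0026 to 0.305) and in all 18 fits with 1 array left out (-0.58 to -0.39). Myc lay under the filter and was tested only in the fit of all probe sets, and 6 arrays per genotype limit what differences of 1.3-fold can be seen.

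Of the 8 tested members, 0 passed in ERalphaKO-labelled against wild type arrays, and 1 with quantile normalization, with array weights, with the cerebellar score and with only the groups compared. In ERbetaKO-labelled against wild type arrays 0 passed, and 1 with a common median, with array weights and with the neuron score. Between the lines 1 passed, 3 with array weights and 0 with the neuron score. With 1 array left out, these counts ran from 0 to 1, from 0 to 1 and from 1 to 2, and were 0 for sex and for both dependences on sex. The extra calls without ERbetaKO-labelled female replicate 1 were Tff1 and Pgr, and the extra call without ERalphaKO-labelled male replicate 3 was Igfbp4.

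Of the 28 probe sets, 1 passed in ERalphaKO-labelled against wild type arrays, 2 with quantile normalization, array weights or only the groups compared, and 0 with the neuron score or the arrays of strong Pcp2. Between the lines 2 passed, 4 with quantile normalization, a common median, array weights or the cerebellar score, 1 with the Actb ratio and 0 with the neuron score. With 1 array left out, the counts ran from 1 to 2, from 0 to 1 in ERbetaKO-labelled against wild type arrays, and from 1 to 4 between the lines, and were 0 for sex and for both dependences on sex. The Pgr call of 1455772_at was lost without ERalphaKO-labelled female replicate 1 or 2, ERalphaKO-labelled male replicate 1 or 2, ERbetaKO-labelled female replicate 1 or 2, or ERbetaKO-labelled male replicate 2 or 3 (adjusted p 0.0514 to 0.0677), and the count of 4 came without ERalphaKO-labelled male replicate 3.

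Of all genes tested, 877 passed in ERalphaKO-labelled against wild type arrays, 463 with a common median, 2124 over all probe sets, 1553 with array weights, 428 with the Actb ratio, 1483 with the cerebellar score, 79 on the arrays of strong Pcp2 and 3 with the neuron score. In ERbetaKO-labelled against wild type arrays 981 passed, 1872 with a common median, 1619 over all probe sets, 1550 with array weights, 122 with the Actb ratio, 242 on the arrays of strong Pcp2 and 307 with the neuron score. Between the lines 2015 passed, 4245 over all probe sets, 3831 with array weights, 759 with the Actb ratio and 243 with the neuron score. For sex 4 passed, 2 with the filter at the 60th percentile and 15 over all probe sets. For the dependence of the ERalphaKO-labelled difference on sex 0 passed, and 1 with no filter. With 1 array left out, the counts ran from 398 to 1091, from 506 to 1066, from 1189 to 2250, from 4 to 5, and for the dependences on sex from 0 to 3 and from 0 to 2. Counts moved by over 1.5 times without these arrays. For ERalphaKO-labelled against wild type they were 541 and 491 without ERalphaKO-labelled female replicates 2 and 3, 467 and 398 without ERalphaKO-labelled male replicates 1 and 2, 555 and 583 without wild type female replicates 1 and 3, and 477 without wild type male replicate 3. For ERbetaKO-labelled against wild type they were 506 and 593 without ERbetaKO-labelled male replicates 1 and 2, and 626 without wild type male replicate 2. Between the lines they were 1273 and 1340 without ERalphaKO-labelled female replicates 1 and 3, 1243 and 1189 without ERalphaKO-labelled male replicates 1 and 2, and 1307 without ERbetaKO-labelled male replicate 2. The calls for the dependences on sex came without wild type male replicate 2 (3 and 2) and ERbetaKO-labelled male replicate 1 (1 for ERbetaKO-labelled). The causes of these changes were not tested.

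Replicate numbers showed no pairing of samples in these values. Same-numbered arrays of different groups had a median correlation of deviations of 0.02 over 45 pairs, with 15 above 0.1. The median was -0.01 over 90 other pairs, and 6 of 18 arrays correlated best with their own number. How replicates were numbered is not given in the sources used here, and the arrays differ in tissue, so a shared litter or handling is not excluded. With the replicate block the members kept 0, 0 and 1 calls in the 3 genotype comparisons, with Tff1 at -0.51 between the lines (limma adjusted p = 0.0175).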
